A study of Mus musculus with 9 samples.

Results

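The subunits of voltage-gated sodium and calcium channels were followed through the degenerated retina of rd10 mice. Members were taken by gene symbol: all Scn genes with a number after the stem, and all Cacna, Cacnb and Cacng genes, with Cacna1f and Cacna2d4, which encode subunits of the photoreceptor calcium channel, set apart as comparison genes. This gave 38 of the 21769 genes in the files. They were 10 sodium channel α subunits, 4 sodium channel β subunits, 9 calcium channel α1 subunits, 3 α2δ subunits, 4 calcium channel β subunits and 8 γ subunits. The rule reads gene symbols and no measured value, but the set was proposed with earlier results of these data known. Their counts came to 15150 to 19357 per wild type library, 11899 to 22200 per GFP library and 29488 to 40915 per rd10 library.

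A voltage-gated channel is built around a large α or α1 subunit that forms the pore and senses voltage, and the smaller subunits tune its gating and carry it to the membrane. Sodium channels start and carry action potentials and are concentrated at the axon initial segment, in the retina mainly in ganglion, amacrine and some bipolar cells. Calcium channels couple voltage to transmitter release and to calcium signals, and L-type channels serve the tonic release of photoreceptor and bipolar cell ribbons. Several γ genes encode no typical channel subunit but TARPs, proteins that escort AMPA-type glutamate receptors to the synapse and shape their currents.

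Polyadenylated RNA of whole retina was sequenced in 9 libraries, 3 in each of 3 groups, with 2 retinae in a library. Wild type retinae came from mice at postnatal day 48, and rd10 retinae from mice at postnatal day 61. The third group is labelled as expressing green fluorescent protein (GFP). A line written Gg13 in the labels, taken at postnatal day 42, was read as this group, the only one left without an age, and neither the promoter that drives GFP nor the cells that carry it is given there. The rd10 strain carries a mutation of the rod phosphodiesterase gene Pde6b, and its rods are lost after birth. The labels call the rd10 retinae degenerated and the retinae of both other groups normal. Age coincides with group, so that age and genotype cannot be told apart in any comparison.

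Library totals ran from 9597635 to 12149448 counts. Levels are given as CPM, counts scaled to a common library size, with edgeR's TMM factors (trimmed mean of M values) applied to the library sizes, and 1 CPM stood for 8.72 to 13.6 counts. A floor of 3 counts was 0.221 to 0.344 CPM, and it covers counting error only. On the second principal component of all genes, wild type 3 (-28.6) and GFP 2 (-54.5) lay below the other libraries of the normal groups. Long transcripts were also low in these libraries: the slope of log2 CPM for each doubling of transcript length was -0.24 in wild type 3 and -0.33 in GFP 2, and up to 0.22 in rd10 3. A list of 10 lens genes summed to 2013 to 4952 CPM in wild type 2, wild type 3, rd10 2 and GFP 1, and to 3.53 to 48.8 CPM in the other libraries. The list of 10 rod genes summed to 73046 to 98268 CPM in wild type, 79417 to 89186 in GFP and 406 to 1094 in rd10, which set the rd10 libraries apart as labelled. The sums of wild type and GFP overlapped and do not check those labels. In whole tissue, fewer cells of a type and less RNA per cell cannot be told apart. Levels are shares of a library, and p-values weigh a difference between groups against the spread between these libraries.

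The plot of levels shows where the channel genes lay in the retina, from Cacng8, the lowest, to Cacna1h, the highest in rd10. Of the 38 members, 34 passed the filter on low counts and were tested. Scn10a and Cacng6 had a count of 0 in all 9 libraries. Scn10a encodes a sodium channel of pain-sensing neurons. Scn11a, its close relative in the same neurons, had 66 counts over all libraries, 40 of them in rd10. Cacng1, the γ subunit of the skeletal muscle calcium channel, had 9 counts, 7 of them in rd10.

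**Figure D1:**
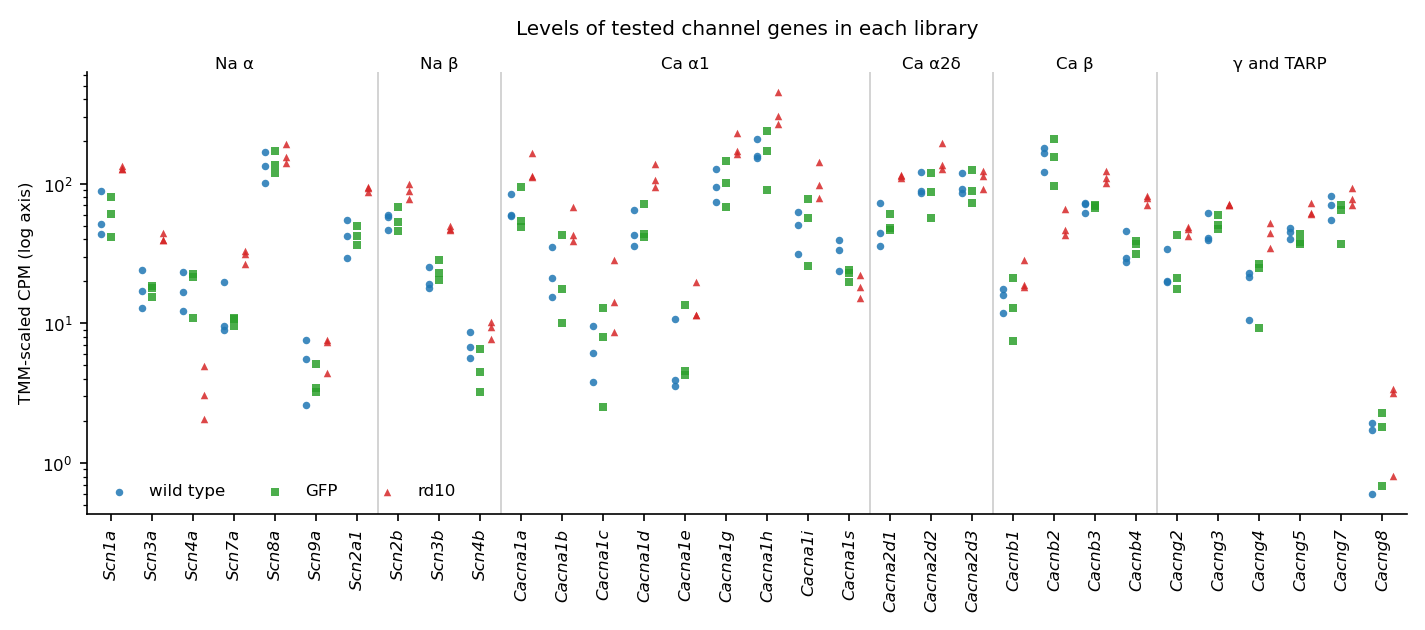
TMM-scaled CPM on a log axis of 32 of the 34 tested channel genes, ordered by subunit class, with 1 point for each of the 3 wild type (blue circles), 3 GFP (green squares) and 3 rd10 (red triangles) libraries. The rd10 points lie above the others for most genes, and below them for Scn4a, Cacnb2 and, against wild type, Cacna1s.

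In rd10 against wild type, 17 of the 34 tested members were higher, 3 were lower and 14 did not pass the test (edgeR's quasi-likelihood test, adjusted p under 0.05 over 14300 genes). Of all genes tested, 14.5% were higher and 13.9% lower. The members that were lower were Scn4a, Cacnb2 and Cacna1s. The libraries of rd10 and wild type did not overlap for 26 of the 34 members, against 50.5% of all genes. The median log2 difference was 0.85 over the tested members and -0.03 over all genes tested, and 31 of 34 members had a positive difference, against 48.1% of all genes. Among the members that were higher the fold ran from 1.47 to 2.40, and among those that were lower from 1.75 to 5.19.

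In rd10 against GFP, 17 members were higher, 2 were lower and 15 did not pass. Of all genes, 15.2% were higher and 15.0% lower in that comparison. The libraries did not overlap for 22 members, against 48.2% of all genes, and the median log2 difference was 0.82, against -0.02 over all genes. Both comparisons use the same rd10 libraries, so the second is no independent repeat of the first. Higher in both were 15 members, and lower in both were 2, Scn4a and Cacnb2. Cacna1i, Cacng3 and Cacna1s passed in the comparison with wild type alone, and Cacna2d2 and Scn4b in that with GFP alone. The plot of differences shows 32 members in both comparisons.

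**Figure D2:**
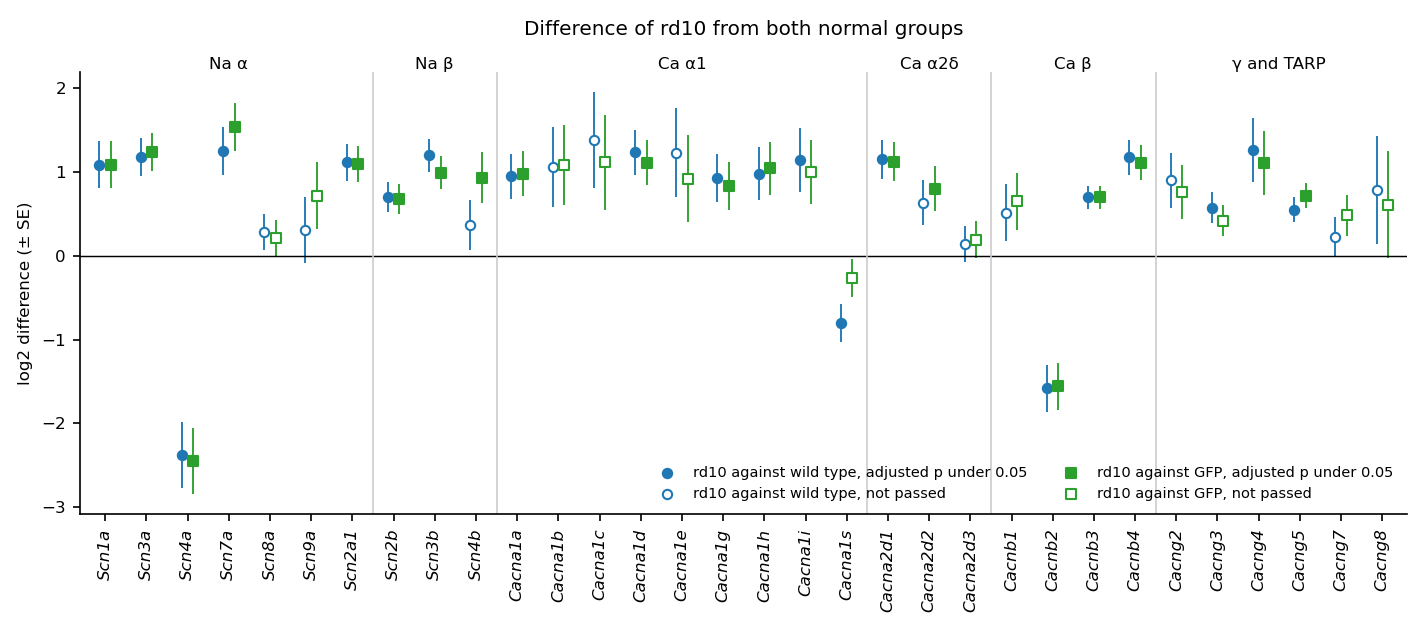
Log2 difference of rd10 from wild type (blue circles) and from GFP (green squares) for 32 of the 34 tested members, with bars of 1 standard error. Filled symbols passed an adjusted p of 0.05. Most members lie above 0, while Scn4a (-2.38 and -2.45) and Cacnb2 (-1.58 and -1.56) lie far below it in both comparisons.

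How firmly these calls stood differed between members. In the comparison with wild type, 10 of 20 calls held without each of the 9 libraries in turn: Scn2a1, Scn3a, Scn3b, Scn7a, Cacna1d, Cacna2d1, Cacnb3 and Cacnb4, which were higher, and Scn4a and Cacnb2, which were lower. In the comparison with GFP, 10 of 19 held, the same genes except that Cacng5 took the place of Cacna1d. The number of members higher against wild type was 10 without wild type 2, without wild type 3 or without rd10 3, and 11 without rd10 1. Over all genes, the number higher fell in these fits from 2067 to between 1269 and 1380. Against GFP the number of members higher was 11 without rd10 1, 10 without rd10 3 and 8 without GFP 3. The number over all genes fell there from 2174 to between 1297 and 1353. Fitted without the wild type libraries, the comparison with GFP gave 12 members higher and 2 lower. Cacna1g, Cacna1h, Cacna2d2, Cacng4 and Scn4b lost their call in that fit, in which 1980 of 14093 genes were higher and 2051 lower. Fitted without the GFP libraries, the comparison with wild type gave 22 members higher and 3 lower, and kept all 20 calls. Of 14099 genes, 2661 were higher and 2441 lower in this fit. With the 4 libraries with lens transcripts left out together, an alternative chosen after the data were seen, wild type was left with 1 library, assumed to vary like the other groups. Against wild type, far fewer of all genes then passed, and only Cacnb2 of the members kept its call. Against GFP 15 members were higher and 2 lower, beside 876 higher and 970 lower of 14705 genes. In that comparison Cacnb3, Cacng4, Cacng5, Scn2b and Scn4b had lost their call. With the trend with transcript length removed, 17 were higher and 3 lower against wild type, and 19 and 2 against GFP. Of 14142 genes, 2541 were higher and 2516 lower against wild type in that fit, and 2579 and 2819 against GFP.

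Among the sodium channel α subunits, 4 of the 8 tested rose in rd10 (Scn1a, Scn2a1, Scn3a and Scn7a), 1 fell (Scn4a) and 3 did not pass, in both comparisons. Scn1a, a pore subunit of many inhibitory neurons and ganglion cells, had 88.0, 43.8 and 51.1 CPM in wild type, 80.5, 41.5 and 60.2 in GFP, and 128, 127 and 134 in rd10. The rd10 libraries all lay above both normal groups. The log2 difference was 1.09 (SE 0.28, adjusted p = 0.0160) from wild type and 1.09 (SE 0.28, adjusted p = 0.0154) from GFP. The first call was lost without wild type 2 or wild type 3 (adjusted p from 0.00361 to 0.0645 over the 9 libraries left out in turn), and the second without GFP 3 (from 0.00679 to 0.0508).

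Scn2a1, the older symbol of Scn2a and a main α subunit of brain axons, had 55.0, 29.4 and 42.02 CPM in wild type, 41.9, 49.97 and 36.0 in GFP, and 93.3, 86.4 and 94.5 in rd10. The groups did not overlap, and the log2 difference was 1.12 (SE 0.22, adjusted p = 0.00429) from wild type and 1.10 (adjusted p = 0.00437) from GFP. Scn3a, known as a channel of the embryonic brain, had 24.2, 12.9 and 17.0 CPM in wild type, 18.6, 17.9 and 15.4 in GFP, and 39.6, 39.4 and 44.0 in rd10. The rd10 values again lay close together and above all others, with a log2 difference of 1.18 (SE 0.22, adjusted p = 0.00385) and 1.24 (adjusted p = 0.00281). Scn7a encodes a sodium-sensing relative of these channels that is not opened by voltage in the usual way. It had 19.8, 9.53 and 8.92 CPM in wild type, 11.0, 10.7 and 9.63 in GFP, and 32.9, 31.4 and 26.7 in rd10, so that even wild type 1, the highest normal library, lay below rd10. Its log2 difference was 1.25 (SE 0.29, adjusted p = 0.00943) and 1.54 (SE 0.29, adjusted p = 0.00334).

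Scn8a, the α subunit that dominates mature axon initial segments and nodes of Ranvier, did not pass in either comparison. Its levels were 169, 101 and 133 CPM in wild type, 169.7, 135 and 119 in GFP, and 141, 155 and 193 in rd10. The rd10 libraries lay within or just above the range of the normal ones, and the log2 difference was 0.28 (SE 0.22, adjusted p = 0.346) and 0.21 (adjusted p = 0.481). With the trend with transcript length removed its sign turned, to -0.07 and -0.09. Scn9a, a channel of peripheral sensory neurons, was low, at 2.60 to 7.59 CPM over the 9 libraries. It did not pass, with a log2 difference from wild type of 0.31. Scn9a shares 67392 bases with Gm13629 on the opposite strand, and the strand setting of the counting was not given in the sources used here.

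Scn4a, the sodium channel of skeletal muscle, fell more than any other member. It lies on chromosome 11 (106179907 to 106210704, minus strand, mm9). Counts of Scn4a were 166, 243 and 123 in wild type, 236, 95 and 238 in GFP, and 26, 38 and 67 in rd10. As levels these were 16.8, 23.4 and 12.3 CPM in wild type, 21.4, 10.9 and 22.7 in GFP, and 2.05, 3.06 and 4.94 in rd10. The lowest normal library, GFP 2, lay well above the highest rd10 library. The log2 difference was -2.38 (SE 0.39, adjusted p = 0.00180) from wild type, a 5.19-fold lower level, and -2.45 (SE 0.39, adjusted p = 0.00148) from GFP. Both calls held without each library in turn, and the call against wild type was lost without the 4 libraries with lens transcripts.

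Markers of skeletal muscle were low or at 0. Of 10 genes of that list, 3 (Myh1, Myh2 and Tnnt3) had a count of 0 in all libraries and 4 could be tested. The summed level was 10.8 to 14.1 CPM in wild type, 6.58 to 13.6 in GFP and 6.12 to 7.97 in rd10, and 1 gene, Mylpf, was lower in rd10 in both comparisons, with 2.98 to 5.72 CPM in wild type, 2.10 to 5.85 in GFP and 0.590 to 1.66 in rd10. Scn4a had 12.3 to 23.4 CPM in wild type, 10.9 to 22.7 in GFP and 2.05 to 4.94 in rd10. The part of muscle RNA in the difference of Scn4a was not tested.

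The promoter of Scn4a is shown because this gene had the largest difference of the class and of all members. The window is the 300 bases around the RefSeq start of transcription, most of them upstream of it, at chr11:106349341-106349640 on the minus strand of GRCm38.p6, a build that differs from the mm9 of the count files. Capitals would mark TAATCC, the core bound by the photoreceptor factor Crx, on either strand, and this window has none.
Scn4a: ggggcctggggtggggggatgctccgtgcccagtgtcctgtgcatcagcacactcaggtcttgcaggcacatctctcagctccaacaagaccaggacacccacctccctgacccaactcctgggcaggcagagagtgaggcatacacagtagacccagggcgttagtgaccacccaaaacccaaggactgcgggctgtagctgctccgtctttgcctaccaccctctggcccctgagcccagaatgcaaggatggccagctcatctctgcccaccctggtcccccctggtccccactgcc

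Of the sodium channel β subunits, which adjust gating and act as cell adhesion molecules, Scn2b and Scn3b rose in both comparisons. Scn3b had 25.4, 17.99 and 19.0 CPM in wild type, 28.5, 20.3 and 23.1 in GFP, and 46.6, 49.5 and 47.2 in rd10. The rd10 libraries lay within a narrow band well above the others. The log2 difference was 1.20 (SE 0.19, adjusted p = 0.00157) from wild type, the smallest adjusted p of all members there, and 0.99 (SE 0.19, adjusted p = 0.00403) from GFP. Scn2b had 59.4, 57.3 and 46.4 CPM in wild type, 46.0, 67.4 and 53.0 in GFP, and 99.7, 88.5 and 77.2 in rd10, with no overlap. Its log2 difference was 0.70 (SE 0.18, adjusted p = 0.0153) and 0.67 (SE 0.18, adjusted p = 0.0177). The calls of Scn2b were lost without wild type 3 or rd10 1 (adjusted p up to 0.0635) and, against GFP, without rd10 1 or GFP 3 (up to 0.0711) and with the length trend removed.

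Scn4b, the subunit tied to resurgent sodium current, had 8.68, 5.68 and 6.72 CPM in wild type, 6.53, 3.21 and 4.48 in GFP, and 7.66, 10.2 and 9.44 in rd10. It rose against GFP (0.93, SE 0.30, adjusted p = 0.0395) and did not pass against wild type (0.37, adjusted p = 0.366). That call was lost without wild type 3, GFP 2, GFP 3 or any of the rd10 libraries (adjusted p up to 0.117). Between the normal groups, Scn4b in GFP differed from wild type by -0.56, which did not pass (adjusted p = 1.00).

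Of the 9 calcium channel α1 subunits, 5 rose against wild type (Cacna1a, Cacna1d, Cacna1g, Cacna1h and Cacna1i), 1 fell (Cacna1s) and 3 did not pass. Against GFP, Cacna1a, Cacna1d, Cacna1g and Cacna1h rose and 5 did not pass. Cacna1d encodes an L-type pore of neurons and sensory cells. It had 64.8, 36.0 and 42.8 CPM in wild type, 71.6, 41.4 and 43.3 in GFP, and 106, 95.2 and 137 in rd10. Every rd10 library exceeded every normal library, with a log2 difference of 1.24 (SE 0.27, adjusted p = 0.00765) from wild type and 1.11 (SE 0.27, adjusted p = 0.0117) from GFP. The second call was lost without rd10 3 or GFP 3 (adjusted p up to 0.0506). Cacna1d shares 11592 bases with Dcp1a and 528 with Chdh, both on the opposite strand.

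Cacna1a, the P/Q-type pore of fast synapses, had 84.3, 58.2 and 59.1 CPM in wild type, 94.1, 48.7 and 53.9 in GFP, and 113, 111 and 165 in rd10. Here wild type 1 and GFP 1 were the highest normal libraries and stayed below rd10. The log2 difference was 0.95 (SE 0.27, adjusted p = 0.0251) and 0.98 (SE 0.27, adjusted p = 0.0205). The call against wild type was lost without wild type 2, wild type 3 or rd10 3 (adjusted p up to 0.0954), and that against GFP without rd10 3 or GFP 3 (up to 0.0846).

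The T-type pores, which open near the resting potential, were Cacna1g, Cacna1h and Cacna1i. Cacna1h had 209, 158 and 152 CPM in wild type, 236, 90.4 and 170.4 in GFP, and 306, 268 and 451 in rd10. No normal library reached rd10, with a log2 difference of 0.98 (SE 0.32, adjusted p = 0.0413) and 1.04 (SE 0.32, adjusted p = 0.0314). Cacna1g had 127, 95.1 and 73.4 CPM in wild type, 146, 68.4 and 101 in GFP, and 163, 170.5 and 229 in rd10, with a log2 difference of 0.93 (adjusted p = 0.0323) and 0.84 (adjusted p = 0.0454). Cacna1i rose by 1.14 from wild type (adjusted p = 0.0444), and its difference of 1.00 from GFP did not pass (adjusted p = 0.0666). Without wild type 2, wild type 3, rd10 1 or rd10 3, all 3 lost their call against wild type (adjusted p up to 0.154). Cacna1g lost it also without rd10 2, and Cacna1h and Cacna1i without GFP 3. Against GFP, Cacna1h lost its call without rd10 1, rd10 3 or GFP 3 (up to 0.123), and Cacna1g without 6 of the 9 libraries (wild type 2, GFP 2, GFP 3 and each of rd10, up to 0.152).

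Cacna1b, the N-type pore of synaptic terminals, Cacna1c, the L-type pore of heart and brain, and Cacna1e, the R-type pore, did not pass in either comparison. Their log2 differences from wild type were 1.06 (SE 0.47), 1.39 (SE 0.57) and 1.23 (SE 0.53), as large as those of members that passed, with wider errors. Levels of Cacna1c ran from 2.52 to 12.97 CPM in the normal libraries and from 8.69 to 28.2 in rd10, and those of Cacna1e from 3.56 to 13.6 and from 11.4 to 19.8. Cacna1c shares 21157 bases with Dcp1b on the opposite strand, which had mean levels of 17.6 CPM in wild type, 18.05 in GFP and 19.7 in rd10, and the part of Dcp1b reads in the values of Cacna1c was not tested.

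Cacna1s, the L-type pore that triggers contraction of skeletal muscle, was the α1 subunit that fell. It lies on chromosome 1 (137949478 to 138016399, plus strand, mm9). It had 23.8, 39.7 and 33.6 CPM in wild type, 24.1, 19.6 and 23.1 in GFP, and 18.1, 15.2 and 22.3 in rd10. The rd10 libraries lay below wild type but overlapped GFP. The log2 difference was -0.81 (SE 0.23, adjusted p = 0.0233) from wild type and -0.27 (SE 0.23, adjusted p = 0.390) from GFP. Between the normal groups, Cacna1s differed by -0.54 (SE 0.23, adjusted p = 1.00), the lowest unadjusted p of any member there (0.0359). The call was lost without wild type 2, wild type 3, rd10 1 or rd10 2 (adjusted p up to 0.0999) and with library totals in place of TMM, where the difference from GFP turned to 0.06.

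The RefSeq promoter of Cacna1s, at chr1:136052561-136052860 on the plus strand of GRCm38.p6, is shown because it was the 1 promoter with a TAATCC match among the members that fell. The match is in capitals.
Cacna1s: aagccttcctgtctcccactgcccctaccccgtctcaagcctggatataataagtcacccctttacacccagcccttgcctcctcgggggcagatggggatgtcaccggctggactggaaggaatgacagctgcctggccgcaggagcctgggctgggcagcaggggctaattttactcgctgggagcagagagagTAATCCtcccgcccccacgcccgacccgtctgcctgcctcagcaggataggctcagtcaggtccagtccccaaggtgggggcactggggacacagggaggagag

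Of the α2δ subunits, extracellular proteins that raise the number of channels at the membrane and bind gabapentin, Cacna2d1 rose in both comparisons. It had 72.4, 44.2 and 35.6 CPM in wild type, 60.8, 48.1 and 46.4 in GFP, and 116, 113 and 109.9 in rd10. The rd10 values lay close together while wild type spread widely, and the log2 difference was 1.15 (SE 0.24, adjusted p = 0.00538) and 1.12 (SE 0.23, adjusted p = 0.00587). Cacna2d2 had 121, 85.2 and 87.7 CPM in wild type, 118, 56.3 and 86.9 in GFP, and 135, 128 and 194 in rd10. It rose against GFP (0.80, SE 0.27, adjusted p = 0.0449) and did not pass against wild type (0.63, adjusted p = 0.101), though the libraries did not overlap in either. The call against GFP was lost without 7 of the 9 libraries (all but wild type 1 and GFP 1, adjusted p up to 0.168).

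Cacna2d3 had the highest mean level per kb of transcript in the class and did not pass. Its levels were 91.5, 85.2 and 119 CPM in wild type, 72.6, 125 and 88.0 in GFP, and 113, 122 and 91.3 in rd10. The groups overlapped, with a log2 difference of 0.14 (SE 0.22, adjusted p = 0.642) and 0.20 (adjusted p = 0.516). Its gene holds Lrtm1 on the opposite strand over 15435 bases, and Lrtm1 had mean levels of 310.3 CPM in wild type, 351 in GFP and 678 in rd10. Without the strand setting, the part of Lrtm1 reads in these values was not tested.

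The 4 calcium channel β subunits, which bind the pore from inside the cell and bring it to the membrane, went in opposite directions. Cacnb2 fell, Cacnb3 and Cacnb4 rose, and Cacnb1 did not pass, in both comparisons. Cacnb2 is the β subunit known for the calcium channel of the photoreceptor synapse, where it works with the products of Cacna1f and Cacna2d4. It lies on chromosome 2 (14525933 to 14908560, plus strand, mm9). Cacnb2 had 181, 166 and 120.2 CPM in wild type, 209, 95.4 and 155 in GFP, and 46.9, 43.1 and 65.9 in rd10. The lowest normal library, GFP 2, lay above the highest rd10 library. The log2 difference was -1.58 (SE 0.29, adjusted p = 0.00284) from wild type, a 2.99-fold lower level, and -1.56 (SE 0.29, adjusted p = 0.00296) from GFP. It passed in both comparisons under each of the 20 alternatives tried.

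RefSeq gives Cacnb2 a pair of promoter windows, shown because its fall stood under all alternatives in both comparisons. They are chr2:14604056-14604355 and chr2:14823842-14824141, both on the plus strand of GRCm38.p6. The first has a GC content of 71.7% and 35 CpG sites and the second 44.0% and 4 CpG sites, and neither holds TAATCC on either strand.
Cacnb2 first start: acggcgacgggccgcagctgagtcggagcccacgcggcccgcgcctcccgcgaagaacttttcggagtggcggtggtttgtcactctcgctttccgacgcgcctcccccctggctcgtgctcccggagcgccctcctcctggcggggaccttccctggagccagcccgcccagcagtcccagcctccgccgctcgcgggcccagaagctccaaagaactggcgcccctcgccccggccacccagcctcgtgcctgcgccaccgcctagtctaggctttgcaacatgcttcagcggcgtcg
Cacnb2 second start: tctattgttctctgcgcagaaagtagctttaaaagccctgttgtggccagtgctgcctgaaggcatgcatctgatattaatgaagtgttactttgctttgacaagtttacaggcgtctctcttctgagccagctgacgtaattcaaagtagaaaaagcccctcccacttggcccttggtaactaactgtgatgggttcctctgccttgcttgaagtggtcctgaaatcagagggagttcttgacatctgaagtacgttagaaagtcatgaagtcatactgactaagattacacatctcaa

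Cacnb4, a β subunit of brain synapses, had 45.7, 29.2 and 27.4 CPM in wild type, 36.8, 31.2 and 38.7 in GFP, and 82.1, 78.6 and 70.5 in rd10. The groups did not overlap, and the log2 difference was 1.18 (SE 0.21, adjusted p = 0.00236) and 1.11 (SE 0.20, adjusted p = 0.00301). Cacnb3, widespread in neurons, had 61.4, 73.0 and 71.2 CPM in wild type, 70.2, 69.2 and 66.6 in GFP, and 100.3, 110.3 and 124 in rd10. All normal libraries lay below all rd10 libraries, with a log2 difference of 0.70 (SE 0.14, adjusted p = 0.00472) and 0.70 (SE 0.14, adjusted p = 0.00457). Cacnb1, the β subunit of skeletal muscle, was low, at 7.45 to 21.04 CPM in the normal libraries and 18.3 to 28.2 in rd10, and its log2 difference of 0.52 from wild type did not pass (adjusted p = 0.270).

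The comparison genes of the photoreceptor calcium channel are not among the 38 and are given beside Cacnb2, as in the plot of genes that were lower. Cacna1f, its pore, had 639, 516 and 498 CPM in wild type, 647, 486 and 529 in GFP, and 187, 207 and 251 in rd10. Its log2 difference was -1.36 (SE 0.19, adjusted p = 5.56e-04) and -1.37 (SE 0.19, adjusted p = 5.17e-04). Cacna2d4, its α2δ subunit, had 662, 590 and 411 CPM in wild type, 671, 361 and 610 in GFP, and 255, 261 and 340 in rd10, with a log2 difference of -0.96 (adjusted p = 0.0198) and -0.94 (adjusted p = 0.0206). The calls of Cacna2d4 were lost with library totals and, against wild type, without wild type 1, wild type 2, rd10 1 or rd10 2 (adjusted p up to 0.0829), and, against GFP, without rd10 1, rd10 2, GFP 1 or GFP 3 (up to 0.0811). Both were also lost without the 4 libraries with lens transcripts. The list of 10 cone genes had 1766 to 2173 CPM in wild type, 1456 to 1874 in GFP and 1695 to 1769 in rd10. Of these cone genes, 1 was higher and 2 lower against wild type, beside 14.5% and 13.9% of all genes. Against GFP, 3 cone genes were higher and 2 lower, beside 15.2% and 15.0% of all genes.

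**Figure D3:**
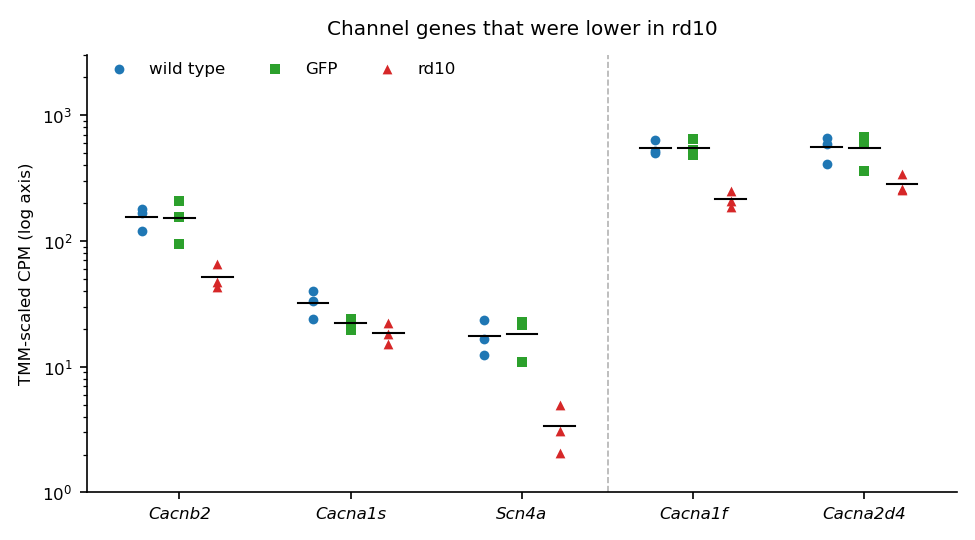
TMM-scaled CPM on a log axis of the 3 members that were lower in rd10 and, right of the dashed line, of the comparison genes Cacna1f and Cacna2d4, with 1 point per library and a bar at each group mean. Scn4a had the widest gap between rd10 and both normal groups, and the rd10 points of Cacna1s overlap those of GFP.

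Of the 8 γ genes, 6 were tested, and 3 rose against wild type (Cacng3, Cacng4 and Cacng5), while 3 did not pass. Cacng5, a TARP of the second type, had 47.97, 44.7 and 40.3 CPM in wild type, 43.4, 38.3 and 36.8 in GFP, and 60.8, 61.3 and 72.7 in rd10. There was no overlap, with a log2 difference of 0.55 (SE 0.15, adjusted p = 0.0198) and 0.72 (SE 0.15, adjusted p = 0.00581). The first call was lost without wild type 3 or rd10 3 (adjusted p up to 0.0757). Cacng3, a TARP of cortical AMPA receptors, had 40.7, 39.5 and 61.4 CPM in wild type, 50.7, 59.4 and 47.4 in GFP, and 71.3, 70.0 and 69.6 in rd10. The rd10 libraries lay close together and above the rest, with a log2 difference of 0.58 (SE 0.19, adjusted p = 0.0400) from wild type and of 0.42 (adjusted p = 0.104), which did not pass, from GFP. The call of Cacng3 was lost without wild type 1, wild type 2 or any of the rd10 libraries (up to 0.122).

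Cacng4, a TARP, rose by 1.27 (adjusted p = 0.0322) and 1.11 (adjusted p = 0.0485), with 10.6 to 22.7 CPM in wild type, 9.28 to 26.6 in GFP and 34.9 to 52.6 in rd10. Its calls were lost without wild type 2, wild type 3, rd10 1 or rd10 3 (adjusted p up to 0.103) and, against GFP, without 7 of the 9 libraries (all but wild type 3 and GFP 1, up to 0.142). Cacng7 had the highest level per length of the class, with 70.4, 82.1 and 54.5 CPM in wild type, 64.5, 37.1 and 70.7 in GFP, and 77.6, 70.7 and 93.1 in rd10. The rd10 range overlapped that of wild type and, only at 70.7 CPM, that of GFP. Cacng7 did not pass (0.22, SE 0.24, adjusted p = 0.510, and 0.48, adjusted p = 0.148). Cacng2, the stargazin gene, had a log2 difference of 0.90 from wild type (adjusted p = 0.0609), with 17.5 to 42.9 CPM in the normal libraries and 41.98 to 48.8 in rd10. Cacng8, a TARP of the hippocampus, had 0.602 to 3.39 CPM over all libraries and did not pass.

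To compare genes with each other, CPM was divided by transcript length in kb, and each member's share of its class was taken within a library, which frees it from the scaling between libraries. The shares are a description and were not tested. Per kb of transcript, Cacnb2 led the β subunits in wild type with 39.4 ± 7.98 CPM per kb (SD, n = 3) against 25.1 ± 2.29 for Cacnb3, whereas in rd10 Cacnb3 led with 40.8 ± 4.31 against 13.2 ± 3.09. As shares, Cacnb2 made up 53.6% ± 5.01 of the class in wild type, 52.4% ± 8.05 in GFP and 18.7% ± 2.35 in rd10. Cacnb3 made up 34.7% ± 6.34, 36.1% ± 8.67 and 58.5% ± 1.95, and Cacnb4 5.63% ± 1.26, 6.12% ± 0.974 and 13.6% ± 2.46. In all 6 normal libraries but GFP 2 Cacnb2 was the leading β subunit, and in all 3 rd10 libraries Cacnb3 was. With coding length in place of transcript length, the share of Cacnb4 in rd10 was 30.5%, and Cacnb3 had 46.9% and Cacnb2 16.1%.

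**Figure D4:**
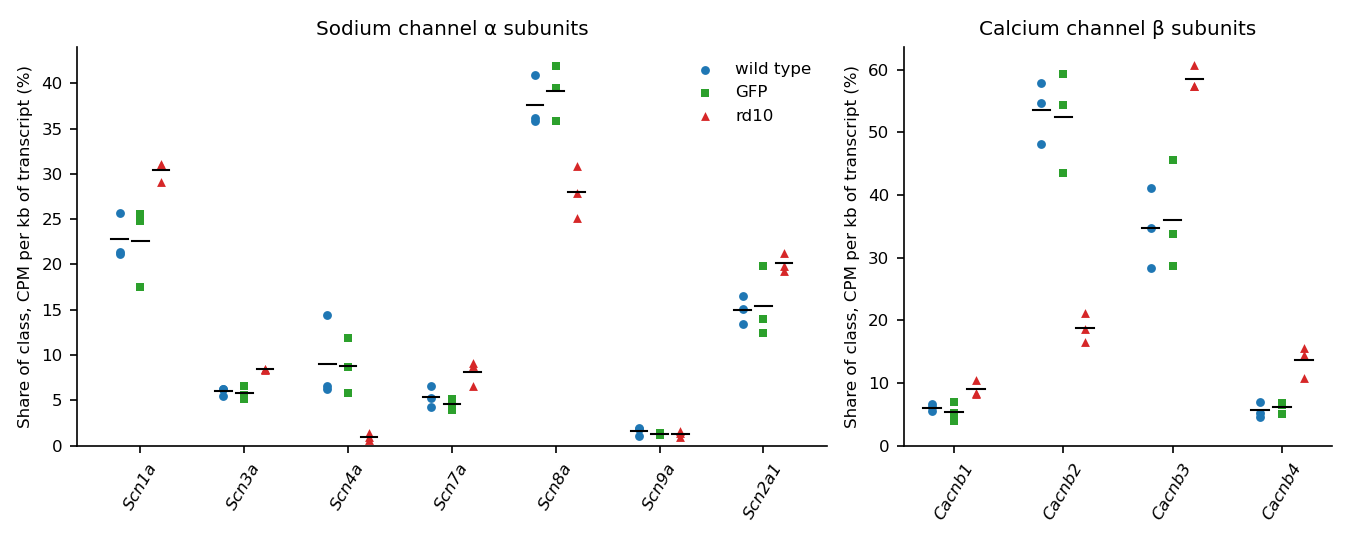
Share in percent of 7 of the 8 tested sodium channel α subunits (left) and each calcium channel β subunit (right) in the summed CPM per kb of its class, with 1 point per library and a bar at each group mean. The share of Cacnb2 was 43.6% to 59.3% in the normal libraries and 16.5% to 21.2% in rd10, and that of Scn4a was 5.86% to 14.4% and 0.634% to 1.37%.

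Among the sodium channel α subunits, Scn8a held the largest mean share in both normal groups, and Scn1a in rd10, although in rd10 3 Scn8a led with 30.8% against 29.1%. Scn8a made up 37.6% ± 2.82 in wild type, 39.1% ± 3.06 in GFP and 27.9% ± 2.84 in rd10, and Scn1a 22.8% ± 2.54, 22.6% ± 4.41 and 30.4% ± 1.14. With coding length Scn8a led in rd10 too, at 33.8% against 26.7% for Scn1a, so the order in rd10 depends on the length used. Scn2a1 went from 15.0% ± 1.57 to 20.1% ± 1.03, and Scn4a from 9.06% ± 4.62 to 0.983% ± 0.367. By mean share per kb of transcript, the same gene led in wild type and rd10 among the α1, α2δ and γ genes: Cacna1h led the α1 subunits with 35.0% ± 1.49 and 36.1% ± 1.26, Cacna2d3 the α2δ subunits with 53.1% ± 8.52 and 41.7% ± 6.87, and Cacng7 the γ genes with 44.0% ± 6.78 and 35.7% ± 1.86. In rd10 3, however, Cacna2d2 led the α2δ subunits with 45.8% against 33.9% for Cacna2d3. With coding length, Cacna2d3 had 41.3% in wild type against 38.2% for Cacna2d2, and in rd10 Cacna2d2 led with 39.2% against 30.1%, so that order depends on the length used.

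In GFP against wild type, 0 of the 34 members passed edgeR's test, as did 0% of all genes. At an unadjusted p under 0.05 there was 1 member, Cacna1s, among 214 genes. DESeq2 called 1 gene and 0 members. For 0 members did the libraries of the groups not overlap, against 3.99% of all genes, and the median log2 difference was 0.01, as over all genes. The differences of the members ran from -0.56 to 0.31.

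Proteins that work with these channels were read from 5 lists of 62 genes, 61 of them tested. In rd10 against wild type 24 were higher, 5 lower and 32 did not pass. Over all genes tested, 14.5% were higher and 13.9% lower there, and 15.2% and 15.0% against GFP. Among 14 genes of the axon initial segment, where sodium channels are anchored, 8 were higher and 0 lower. Against GFP 8 were higher and 1 was lower, Nedd4l, a ubiquitin ligase named here after its values were seen (log2 difference -0.47, adjusted p = 0.0372). The medians of this list were 0.83 from wild type and 0.72 from GFP. Fgf13, which encodes a factor that binds the tail of sodium channels, had 39.3, 34.5 and 34.4 CPM in wild type, 36.4, 43.3 and 43.5 in GFP, and 82.5, 75.0 and 66.5 in rd10. It rose by 1.05 (SE 0.15, adjusted p = 7.80e-04) and 0.86 (SE 0.15, adjusted p = 0.00236) with no overlap. Cntnap2, an adhesion protein of axons, lay between 111 and 124 CPM in wild type and between 179 and 209 CPM in rd10. It rose by 0.75 (adjusted p = 0.00306) and 0.71 (adjusted p = 0.00386), and lost both calls with the length trend removed. Without the 4 libraries with lens transcripts, both genes lost their calls in both comparisons.

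Among 14 genes of calcium channel partners at the release site, 2 were higher, 2 lower and 10 did not pass, shares near the 14.5% and 13.9% of all genes. Stx3, the syntaxin of ribbon synapses, had 1052, 1251 and 862 CPM in wild type, 969.9, 1104 and 1131 in GFP, and 329, 331 and 386 in rd10, a log2 difference of -1.60 (SE 0.18, adjusted p = 1.27e-04) and -1.61 (SE 0.18, adjusted p = 1.08e-04). All rd10 libraries lay below all others. Rims2, a scaffold of calcium channels at the active zone, had 194, 161 and 117 CPM in wild type, 203, 62.0 and 182 in GFP, and 60.9, 57.5 and 87.4 in rd10. It fell by 1.20 (SE 0.38, adjusted p = 0.0370) and 1.12 (adjusted p = 0.0446), but GFP 2 lay within the range of rd10. The calls of Rims2 were lost with library totals and, against wild type, without wild type 1, wild type 2, GFP 3 or any of the rd10 libraries (adjusted p up to 0.124), and, against GFP, without 7 of the 9 libraries (all but wild type 3 and GFP 2, up to 0.137). Both were also lost without the 4 libraries with lens transcripts.

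Of 14 tested calcium sensors and regulators, 4 were higher against wild type and 1, Cabp4, was lower, beside 14.5% and 13.9% of all genes. Cabp4, the calcium-binding protein that sets the voltage range of the photoreceptor channel, had 316, 353 and 409 CPM in wild type, 269.6, 579 and 389 in GFP, and 14.9, 15.6 and 21.2 in rd10. It fell by 4.38 (SE 0.30, adjusted p = 3.13e-06) and 4.58 (SE 0.30, adjusted p = 2.31e-06), far more than Cacna1f, Cacna2d4 or Cacnb2. Of 10 genes of sodium leak and other cation channels, 5 were higher and 1 lower. Hcn3, a pacemaker-type cation channel gene, lay between 24.2 and 31.7 CPM in wild type and between 50.6 and 61.6 CPM in rd10, and rose by 1.01 (adjusted p = 0.00201) and 0.90 (adjusted p = 0.00348). Of 9 genes of AMPA receptors and of proteins that work with them, 5 were higher and 1 lower. Gria1, an AMPA receptor subunit, lay between 44.3 and 54.8 CPM in wild type and between 95.8 and 104 CPM in rd10, and rose by 0.99 (adjusted p = 5.64e-04) and 0.96 (adjusted p = 6.90e-04). Hcn3 and Gria1 lost their call against wild type without the 4 libraries with lens transcripts.

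Levels of inner retinal cell markers are given beside those of the members. Of all genes tested, 14.5% were higher against wild type and 13.9% lower. Against wild type, 6 of 10 ON bipolar, 8 of 10 amacrine, 4 of 11 ganglion, 2 of 6 horizontal and 9 of 10 Müller glia markers were higher, and 0 markers of these 5 lists were lower. Median log2 differences were 1.10, 0.72, 0.53, 1.08 and 0.97 in that order, beside 0.85 over the channel members. ON bipolar markers summed to between 1488 and 1799 CPM in wild type and between 2763 and 3471 in rd10. For amacrine markers these ranges were 1113 to 1231 and 1809 to 1880 CPM, for ganglion cell markers 1231 to 1432 and 1729 to 1947 CPM, and for horizontal cell markers 400.4 to 439 and 446 to 512 CPM. Müller glia markers, the most abundant of these lists, had 4328 to 5832 CPM in wild type and 9085 to 9725 in rd10. Of 10 microglia markers 9 were higher, with 59.1 to 72.3 CPM in wild type and 189 to 221 in rd10. Of 9 tested smooth muscle and pericyte markers and of 4 tested oligodendrocyte markers 0 passed, and 2 of 8 pigment epithelium markers were higher. The part of these cell types in the differences of the channel genes was not tested. Scaling by library totals in place of TMM raised the median of all genes by 0.29 against wild type and by 0.33 against GFP. It gave 3604 higher and 1077 lower genes against wild type, where TMM gave 2067 and 1988. Against GFP it gave 4041 higher and 1055 lower genes, where TMM gave 2174 and 2138. Of the members, 23 were then higher and 2 lower against wild type, and 25 and 2 against GFP.

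Of the 38 members, 29 were found in the RefSeq promoter table, with 40 windows of 300 bases. TAATCC was present on either strand in 4 of these windows, those of Cacna1c, Cacna1s, Cacng8 and Scn7a. Over all genes it was present in 7.06% of the 32851 windows, and in 5.74% of the 13022 windows of genes tested here. Of the 4 members with a match, Scn7a was higher, Cacna1s was lower and Cacna1c and Cacng8 did not pass. TATAAA, read on either strand, was present in 2 of 40 windows, against 13.6% of all and 7.41% of those of tested genes. TTCAGCACC, a part of the site of REST, a repressor of neuronal genes, and CACGTG were present in 0 of 40 windows, against 0.371% and 7.15% of all and 0.476% and 9.67% of those of tested genes. The median GC content was 59.5% in the windows of the members and 52.7% in all windows. Matches are descriptions of these letters and not of binding.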

How the data were processed

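Whole mouse retina was measured in 9 libraries of polyadenylated RNA. The authors deposited 1 raw count per gene and library, read as raw counts because the values were whole numbers with unequal totals. The counts used the mouse build mm9, per the submitters' processing notes. For the aligner, the counting program, the annotation and the strand setting nothing is given in the sources used here. Groups came from the sample labels. Replicate libraries of a group differed by more than sampling noise (chi-square per degree of freedom 11.9 to 67.8), and totals of 9597635 to 12149448 counts set the precision.

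Genes were filtered with filterByExpr (minimum count 10, minimum total 15), which left 14300. Counts were scaled by TMM and fitted in 1 model with a mean per group (edgeR 4.0.16, R 4.3.3, quasi-likelihood test, Benjamini-Hochberg adjustment over all genes tested, threshold 0.05). The procedure was tested on simulated data first. Levels per length used the longest transcript of GENCODE vM21. Promoter windows came from RefSeq on GRCm38.p6 and were matched by symbol. Alternatives were 3 other scalings, DESeq2 1.42.0, 2 other filters, a fit of 2 groups alone, a replicate block, removal of the trend with transcript length, each library left out, and 2 sets of libraries left out together.

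Values per library are given for up to 16 members past the threshold with the smallest adjusted p and for the 2 members of each class with the highest level per length, beside the comparison genes, and for up to 4 partner genes in each direction. Cacna1b, Cacna1c, Cacna1e, Cacna1i, Cacng4, Scn4b and other members outside that rule are given by value or range. A few genes that were fitted and enter the counts are not reported here by name or drawn. The members and the lists of markers and partners (186 genes, all found) were chosen with earlier results of these data known.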

Additional observations from a re-analysis of the deposited data

How the results depend on the processing

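The median difference of the members stayed positive under all 20 alternatives, from 0.63 to 1.13 log2 against wild type and from 0.66 to 1.18 against GFP. With each library left out in turn, 10 to 21 members were higher and 2 to 3 lower against wild type, and 8 to 22 were higher and 2 lower against GFP. Over all genes, 1269 to 2891 were higher and 1186 to 2530 lower against wild type in these fits. Against GFP, 1297 to 2266 were higher and 1305 to 2138 lower. In the fit given next, far fewer of all genes passed against wild type than in the main fit. The loss of calls there was therefore not limited to the members. Without the 4 libraries with lens transcripts, an alternative chosen after seeing the data that leaves 1 wild type library, 0 members were higher and 1 lower against wild type; fewer libraries enter that fit.

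Some differences that did not pass changed sign. With the length trend removed, Scn8a was at -0.073 against wild type and -0.089 against GFP, and Scn9a at -0.00178. With each library left out in turn, Scn9a ran from -0.0032 (without wild type 2) to 0.70. Without the lens libraries, Scn8a was at -0.016, Scn9a at -0.022 and Scn4b at -0.026 against wild type, and Cacna2d3 at -0.060 against GFP. With library totals, Cacna1s was at 0.057 against GFP. The cause was not tested.

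With coding length in place of transcript length, the share of Scn8a was 44.8% in wild type, 33.8% in rd10 and 46.4% in GFP, and that of Scn1a 19.7% in wild type and 26.7% in rd10. Scn2a1 had 18.9%, Cacnb2 16.1% and Cacnb3 46.9% in rd10, and Cacnb4 had 13.9%, 30.5% and 15.1% in wild type, rd10 and GFP.

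Equal replicate numbers marked no shared animals in the labels, and the deviations of same-numbered libraries correlated between -0.37 and 0.36. In 6 of 18 cases the closest library of another group had the same number. With the replicate block, 17 members were higher and 3 lower against wild type (Cacng3 lost its call, adjusted p = 0.0576 by edgeR, and Cacna1e gained one) and 19 and 2 against GFP (Cacna1b and Cacna1i gained one); of the partner genes, Rims2 lost its call against GFP. Over all genes, 1817 were higher and 1789 lower against wild type with the replicate block, and 1996 and 1912 against GFP. At these depths, members that did not pass the filter on low counts were not compared between groups in the main fit.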
